A study of Homo sapiens with 4 samples.

Results

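FHIT, WWOX, LRP1B, MACROD2 and IMMP2L, 5 of the longest human genes at common fragile sites, were followed through maps of H3K9me2, histone H3 dimethylated at lysine 9. The members were these 5 gene bodies, at fixed hg19 coordinates, and the peaks that overlapped them by at least 1 bp. Together the bodies spanned 7.47 Mb, or 0.246% of chromosomes 1 to 22 and X. They were overlapped by 545 and 575 peaks in the control libraries and by 590 and 551 in the knockout libraries, of 250000 peaks in each deposited list. The cells were K562, an established human myeloid leukemia line. CUT&RUN, which cuts out chromatin with a nuclease held by an antibody, was used to map the mark. The 2 control libraries came from cells with a CRISPR guide to HPRT (gHPRT), an enzyme of purine salvage, and the 2 knockout libraries from cells with a guide to CUX1 (gCUX1), which encodes a homeobox transcription factor. Values given in pairs are for replicates 1 and 2 in turn. The labels do not say whether the replicates came from separate cultures or clones, so p-values measure only the spread between these libraries. The deposited lists hold peaks and no expression, so neither the identity of the cells nor the loss of CUX1 could be checked in them, and read depth is unknown.

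Common fragile sites are long stretches of the genome that tend to break when DNA replication is slowed, and most lie in very long genes that replicate late. H3K9me2 is laid down in broad domains over mostly silent, late-replicating chromatin. FHIT, at the fragile site FRA3B, encodes a hydrolase of diadenosine nucleotides, and WWOX, at FRA16D, encodes an oxidoreductase with WW domains. Both are often deleted in cancers and are regarded as candidate tumour suppressors. LRP1B encodes an endocytic receptor of the LDL receptor family, MACROD2 an enzyme that removes ADP-ribose from proteins, and IMMP2L a subunit of the peptidase of the mitochondrial inner membrane.

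The hg19 bodies were chr3:59735036-61237133 for FHIT, chr16:78133327-79246564 for WWOX, chr2:140988996-142889270 for LRP1B, chr20:13976146-16033842 for MACROD2 and chr7:110303106-111202573 for IMMP2L. In the order of genes in RefSeq, FHIT lay between CFAP20DC and PTPRG, WWOX between CLEC3A and DYNLRB2, LRP1B between NXPH2 and KYNU, MACROD2 between SEL1L2 and KIF16B, and IMMP2L between DNAJB9 and DOCK4. FLRT3 lay inside MACROD2 and LRRN3 inside IMMP2L, each encoding a leucine-rich repeat membrane protein. MAF overlapped WWOX there without lying inside it, so it is not among the neighbours named.

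Some of the highest-ranked peaks of these genes lay over their start sites, so the promoter sequences are shown for the 4 genes that had one in the RefSeq table. Each runs from 250 bases before to 50 after the gene's start in GRCh38.p14, 5′ to 3′ on the gene's own strand (minus for FHIT and IMMP2L, plus for WWOX and MACROD2). The start in that build need not be the same base as the end of the hg19 body. Capitals mark each CG dinucleotide, which reads the same on both strands.
FHIT: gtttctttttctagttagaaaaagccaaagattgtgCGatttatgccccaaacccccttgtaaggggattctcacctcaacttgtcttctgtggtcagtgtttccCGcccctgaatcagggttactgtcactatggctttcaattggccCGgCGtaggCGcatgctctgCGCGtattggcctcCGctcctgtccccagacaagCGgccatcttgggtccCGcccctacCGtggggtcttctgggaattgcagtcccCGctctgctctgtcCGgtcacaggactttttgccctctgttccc
WWOX: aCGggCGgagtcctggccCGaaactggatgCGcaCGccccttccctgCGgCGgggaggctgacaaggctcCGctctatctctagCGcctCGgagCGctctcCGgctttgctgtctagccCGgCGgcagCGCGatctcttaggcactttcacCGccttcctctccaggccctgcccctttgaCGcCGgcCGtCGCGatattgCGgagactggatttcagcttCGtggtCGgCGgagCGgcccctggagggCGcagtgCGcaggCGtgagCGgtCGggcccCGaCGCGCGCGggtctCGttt
IMMP2L: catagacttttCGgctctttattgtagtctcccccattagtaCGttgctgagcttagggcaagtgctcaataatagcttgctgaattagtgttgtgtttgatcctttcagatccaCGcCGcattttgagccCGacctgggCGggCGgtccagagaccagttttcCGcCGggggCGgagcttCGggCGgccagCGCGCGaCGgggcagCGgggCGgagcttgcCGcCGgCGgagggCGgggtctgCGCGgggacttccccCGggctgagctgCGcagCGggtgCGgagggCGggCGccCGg
MACROD2: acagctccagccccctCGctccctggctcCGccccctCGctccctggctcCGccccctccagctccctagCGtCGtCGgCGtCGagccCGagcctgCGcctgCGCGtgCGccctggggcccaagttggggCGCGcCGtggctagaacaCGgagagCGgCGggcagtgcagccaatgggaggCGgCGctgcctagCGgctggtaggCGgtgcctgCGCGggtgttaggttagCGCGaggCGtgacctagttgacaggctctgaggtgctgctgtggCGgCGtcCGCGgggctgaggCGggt
The FHIT promoter held 13 CG dinucleotides, close to the median of 14 over the 35116 promoters of the table, of which 96.0% held at least 1. The promoters of WWOX (38), MACROD2 (34) and IMMP2L (31) held more than most, with fewer in 90.1%, 84.4% and 79.3% of all promoters.

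The start ends of FHIT, WWOX and IMMP2L lay under a peak in the same 3 libraries, both controls and knockout replicate 2. They lay outside peaks in knockout replicate 1. The share of all gene starts under a peak was not counted. In those 3 libraries 28.9% to 41.9% of the WWOX and IMMP2L bodies was covered, and 9.06% to 10.5% of FHIT. By p the FHIT start peak ranked 38 of 56 and 12 of 69 with gHPRT and 6 of 71 in knockout replicate 2. In knockout replicate 1 the nearest peak was 4574 bp from the FHIT start, 1660 bp from the WWOX start and 695 bp from the IMMP2L start. The CG-rich start of MACROD2 lay under a peak in 0 of 4 libraries, with the nearest peak 6835 and 3035 bp away with gHPRT and 2125 and 800 bp away with gCUX1. At WWOX the peak over the start was the one with the smallest p of the whole gene in control replicate 2 (rank 1 of 138) and in knockout replicate 2 (rank 1 of 128). Its fold enrichment over the caller's local background, the authors' own value for each peak, was 2.40 and 2.64 there, and 1.91 in control replicate 1, where it ranked 32 of 121. These WWOX peaks were narrow, at 1162 and 1753 bp in control replicates 1 and 2 and 1308 bp in knockout replicate 2. The IMMP2L start lay under a peak of 1688 bp in control replicate 1, ranked 2 of 136, and under broad peaks of 8553 bp in control replicate 2 (rank 74 of 123) and 8429 bp in knockout replicate 2 (rank 86 of 108). LRP1B, transcribed from its high-coordinate end, had a peak over that end in control replicate 2 and knockout replicate 2. In no body did any peak in any library reach a q of 0.05. Few peaks did anywhere, 17 and 312 of the 250000 in each list with gHPRT and 9 and 460 with gCUX1.

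The libraries differed in ways that touched every value below. Knockout replicate 1 stood apart, with 13.9% of chromosomes 1 to 22 and X under peaks, against 22.8% and 22.4% with gHPRT and 19.3% in knockout replicate 2. Its list ended at a −log10 p of 1.49 and the others at 1.25 to 1.35, and its median peak was 1324 bp wide, against 1900 to 2335 bp. The tags "sub" in the peak names of control replicate 1 and "cux1kd" in those of both knockouts are not explained by the labels. Whether depth, copy number or a background library played a part in any difference was not tested.

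H3K9me2 coverage, the percent of a gene's bases under listed peaks, placed the 5 genes at very different levels. IMMP2L and WWOX were dense, LRP1B was intermediate, and FHIT and MACROD2 were sparse. IMMP2L had 41.9% and 35.8% of its body covered in the first and second control library, and 20.5% and 28.9% in the first and second knockout library. WWOX had 34.2% and 35.8% with gHPRT, and 21.1% and 31.9% with gCUX1. These 2 dense genes changed places between libraries, and did not differ beyond their spread. LRP1B had 23.6% and 24.3% with gHPRT, and 16.6% and 20.1% with gCUX1, near the level of the whole genome. FHIT had 10.5% and 10.4% with gHPRT, and 11.9% and 9.06% with gCUX1. MACROD2 had 5.89% and 5.84% with gHPRT, and 2.90% and 3.66% with gCUX1, the lowest of the 5 in each of the 4 libraries. In each library LRP1B lay between the dense genes and FHIT, and FHIT lay above MACROD2. Of 2796 windows of 1 Mb that overlapped no body, 85.5% had a lower mean coverage than IMMP2L, 81.9% than WWOX, 41.4% than LRP1B, 22.6% than FHIT and 8.37% than MACROD2.

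**Figure D1:**
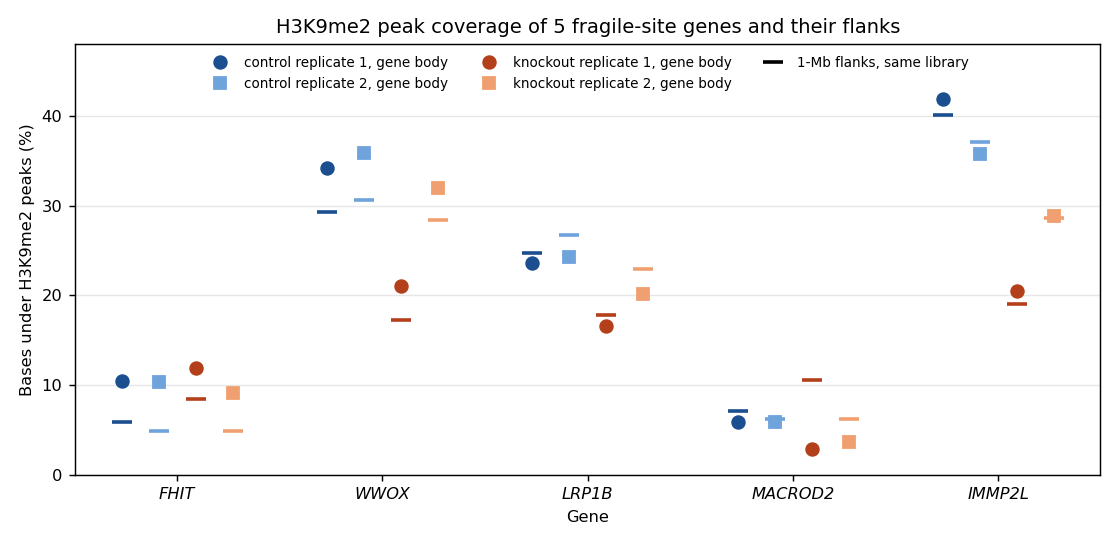
Percent of bases under H3K9me2 peaks in each gene body (points, 1 per library) and in its 1-Mb flanks together (short lines, same library). FHIT and MACROD2 sit lowest, the FHIT bodies lie above their flanks in all 4 libraries, and knockout replicate 1 is the lowest library in WWOX, LRP1B, MACROD2 and IMMP2L but the highest in FHIT.

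Coverage was then compared between knockout and control. Both knockouts lay below both controls in 4 of 5 bodies, all but FHIT, and 63.8% of the 2802 rows tested (the bodies and the 1-Mb windows) did the same. In the full lists they lay above in 0 of 5, against 1.46% of rows. With lists limited to 1 −log10 p, to 1 −log10 q or to equal covered length, both knockouts lay above in FHIT and in LRP1B. They did so in WWOX with 1 limit of −log10 p and in IMMP2L with 1 limit of −log10 q. The median difference over rows was then 3.37, 4.06 and 0.355 points in turn. The share of rows with both knockouts above was not counted in these settings. In the full lists the mean difference, knockout minus control, was −14.2 percentage points (SE 6.82) for IMMP2L, −8.51 (SE 6.40) for WWOX, −5.58 (SE 4.95) for LRP1B, −2.59 (SE 1.38) for MACROD2 and 0.0372 (SE 2.67) for FHIT. By limma with Benjamini-Hochberg adjustment over all rows, 0 of 5 bodies passed the threshold of 0.05, with adjusted p of 0.265 for IMMP2L, 0.302 for MACROD2, 0.381 for WWOX, 0.431 for LRP1B and 0.992 for FHIT. At an unadjusted p under 0.05 only IMMP2L did (0.0378), against 17.2% of rows. Over all rows 4.18% fell and 0.0714% rose by the adjusted p. An exact two-sided permutation test of 2 libraries against 2 cannot go below 0.333 and gave that value for the 4 genes whose groups did not overlap. The median row had 0.747 of its control coverage with gCUX1, and WWOX (0.757) and LRP1B (0.767) had ratios near it. IMMP2L (0.635) lay lower, beside a ratio of 0.667 for the whole of chromosome 7.

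The calls changed when single libraries were left out. Without knockout replicate 2, IMMP2L (−18.4 points, limma adjusted p 1.30e-09) and WWOX (−13.9 points, 5.45e-06) fell past the threshold, in a fit in which 61.3% of rows fell. Without knockout replicate 1, IMMP2L fell by 9.99 points (adjusted p 0.00872), in a fit in which 12.5% of rows fell. In both fits the lone knockout is assumed to vary like the controls. Where all lists were limited to peaks with a −log10 p of at least 1.49, every body had a higher mean with gCUX1, by 0.145 points (IMMP2L) to 7.23 points (LRP1B), with 0 of 5 past the threshold (limma adjusted p 0.159 to 0.972), and the median row moved from −6.33 to 3.37 points.

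FHIT was the body in which knockout replicate 1 was the highest library, and it was sparse to begin with. MACROD2 was sparser still, and knockout replicate 1 was its lowest library (2.90%). Among the 1-Mb windows outside the bodies, that library was the highest in 27.6% of the 682 with a control mean under 12%, a limit chosen after the FHIT values were seen. It was the highest in 0.662% of the other 2114, and the lowest in 96.1% of them. In the sparse windows it was the lowest in 18.2%. Both knockouts lay below both controls in 34.3% of the sparse windows and in 73.3% of the others.

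The flanks, 1 Mb on each side, showed how far each body stood out from its neighbourhood within 1 list. FHIT and WWOX were more densely covered than their flanks in all 4 libraries. For FHIT, body minus flanks was 4.55 and 5.48 percentage points with gHPRT and 3.39 and 4.21 with gCUX1. For WWOX it was 4.91 and 5.24 points with gHPRT and 3.83 and 3.51 with gCUX1. LRP1B and MACROD2 were below their 1-Mb flanks in all 4 libraries. With flanks of 500 kb LRP1B was above in control replicate 1 (0.967 points) and knockout replicate 1 (0.227), and MACROD2 in control replicate 2 (0.134, and 0.147 with flanks of 2 Mb). Of the 2762 rows whose flanks could be measured 22.7% lay above and 23.4% below in all 4. For LRP1B the difference was −1.11 and −2.40 points with gHPRT and −1.20 and −2.82 with gCUX1. IMMP2L lay at its flanks' level, at 1.82 and −1.26 points with gHPRT and 1.47 and 0.304 with gCUX1. IMMP2L lay in a dense neighbourhood, with its flanks together at 40.1% and 37.1% with gHPRT.

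Body minus flanks was lower in both knockouts than in both controls for 3 of 5 genes, FHIT, WWOX and MACROD2, against 20.4% of all rows. It was higher in both for 0 of 5, against 17.9% of rows. The group difference was −1.21 points for FHIT (exact two-sided permutation p 0.333; limma adjusted p 0.919, SE 1.97) and −1.40 points for WWOX (exact permutation p 0.333; limma adjusted p 0.907, SE 1.95). For LRP1B and IMMP2L the groups overlapped, with differences of −0.254 and 0.607 points and exact permutation p of 0.667 and 1. By limma 0 of 2762 rows passed the adjusted threshold, and 8.15% had an unadjusted p under 0.05, with 0 of the 5 genes among them. With all lists at 1 limit of −log10 p, the difference turned to 1.19 points for FHIT and 1.02 points for WWOX. A difference in points also depends on how much a whole list covers. As a ratio of body to flanks the groups overlapped for FHIT, at 1.77 and 2.12 with gHPRT and 1.40 and 1.87 with gCUX1. They also overlapped for WWOX (1.168 and 1.171 against 1.22 and 1.12), and stayed apart for MACROD2 (0.835 and 0.933 against 0.274 and 0.588). The share of all rows whose ratios stayed apart was not counted.

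In MACROD2 the body was lower in both knockouts while the flanks were not. Its low-coordinate flank had 7.15% and 5.54% under peaks with gHPRT and 10.1% and 6.11% with gCUX1. Its high-coordinate flank had 6.97% and 6.98% with gHPRT and 11.1% and 6.33% with gCUX1. In knockout replicate 1 both flanks were thus the densest of the 4 libraries while the body, at 2.90%, was the sparsest. Body minus flanks was −1.17 and −0.419 points with gHPRT and −7.69 and −2.56 with gCUX1, a group difference of −4.33 points (SE 2.19, limma unadjusted p 0.0836, adjusted p 0.660; exact two-sided permutation p 0.333). Without knockout replicate 1 the difference was −1.77 points, and without knockout replicate 2 it was −6.90. The body held 64 and 77 peaks with gHPRT and 71 and 63 with gCUX1, so the number of listed peaks overlapped between groups. Their median width was 1262 and 1343 bp with gHPRT and 740 and 679 bp with gCUX1. The knockout to control ratio of the body, 0.558, was lower than in all but 8.12% of 1-Mb windows. Chromosome 20 as a whole had 15.9% and 15.4% under peaks with gHPRT and 6.33% and 6.26% with gCUX1, a ratio of 0.403. Of the 25 windows on chromosome 20 with a control mean under 12%, 40% had both knockouts below both controls. The median knockout to control ratio of these sparse windows was 0.848. With all lists cut to equal covered length the MACROD2 body difference was −0.0664 points, and with 1 limit of −log10 p it turned to 0.783 points, while body minus flanks differed by −4.86 and −4.60 points in those settings.

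**Figure D2:**
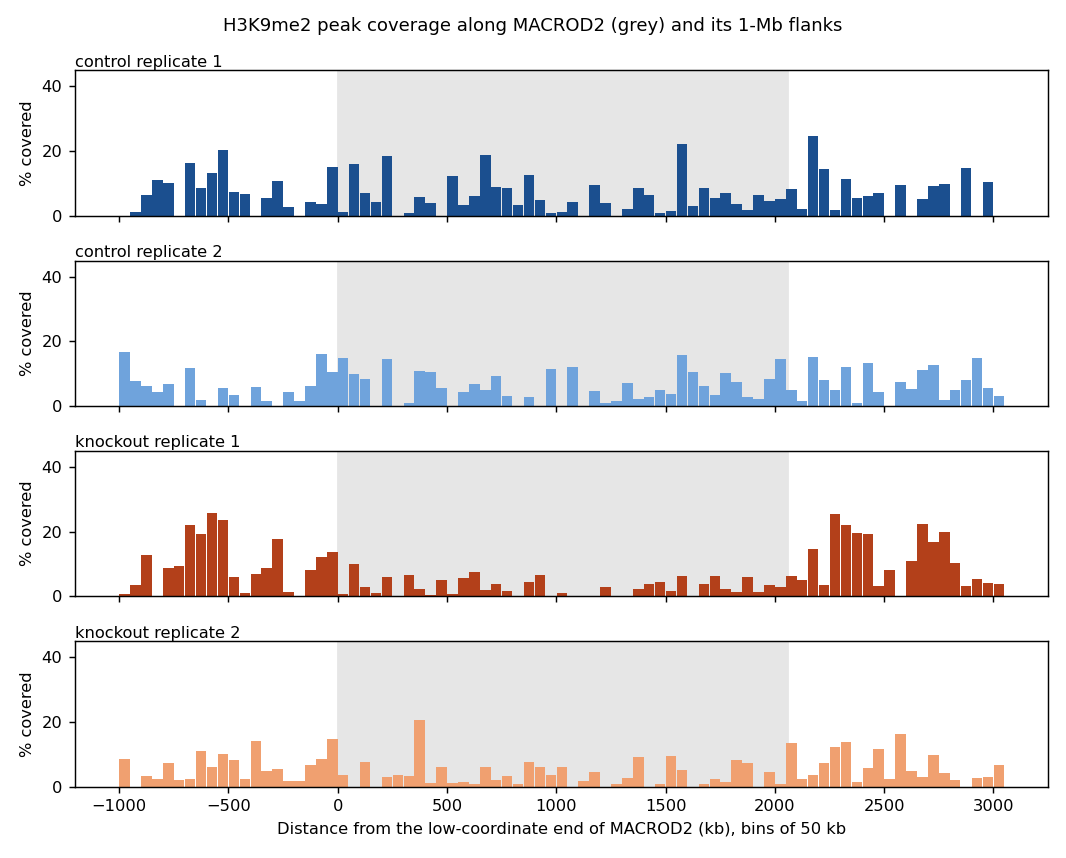
Percent of bases under H3K9me2 peaks in 50-kb bins along MACROD2 (grey) and its 1-Mb flanks, 1 panel per library, by distance in kb from the gene's low-coordinate end. In knockout replicate 1 the bins inside the body are low (2.90% over the whole body) and those of both flanks are higher (10.1% and 11.1%), the body of knockout replicate 2 (3.66%) is also below its flanks (6.11% and 6.33%), and the controls differ less from theirs.

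Within MACROD2 the low coverage was spread along the gene. Of 10 equal parts, the lowest and highest had 3.92% and 10.7% under peaks in control replicate 1, 3.36% and 8.50% in control replicate 2, 0.535% and 4.09% in knockout replicate 1 and 2.55% and 7.46% in knockout replicate 2. The 100-kb window with the highest mean, chr20:15500001-15600000, had 12.4% and 12.8% with gHPRT and 3.58% and 5.19% with gCUX1 (limma unadjusted p 0.0457, adjusted p 0.325). The window with the smallest p, chr20:14000001-14100000 near the start of the gene, had 10.8% and 11.7% with gHPRT and 5.40% and 0.445% with gCUX1 (unadjusted p 0.0208, adjusted p 0.254). The window with the lowest mean, chr20:14900001-15000000, had 1.60% and 5.70% with gHPRT and 0.503% and 1.79% with gCUX1, and its groups overlapped. Of the 19 windows of MACROD2 tested, 0 passed the adjusted threshold.

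FHIT coverage was uneven, and in 3 of 4 libraries more of it lay in 1 block than in all the rest of the gene. The block was found from these values, as the interval of at least 100 kb that split the mean profile of the 4 libraries, in 25-kb bins, into the 2 most different levels, so its height is a description with no test. It ran over chr3:60235036-60535035, 300 kb or 20.0% of the body. Inside it 28.0% and 34.3% of bases were under peaks with gHPRT and 23.0% and 33.4% with gCUX1. In the rest of the body the values were 6.09% and 4.40% with gHPRT and 9.08% and 3.00% with gCUX1. The block was denser than the rest in each library, by 4.60 and 7.80 times with gHPRT and 2.53 and 11.1 times with gCUX1, and it held 38.7% (knockout replicate 1) to 73.5% (knockout replicate 2) of all covered bases of the gene. In the full lists its level was above that of chromosome 3 in each library, which was 22.8% and 21.5% with gHPRT and 14.3% and 18.8% with gCUX1, whereas the flanks of FHIT lay between 2.86% and 11.1%. With equal covered length control replicate 2 had 12.8% in the block and 13.6% on chromosome 3. With 1 limit of −log10 p it had 9.39% and 9.81%, and with 1 limit of −log10 q 10.81% and 10.83%. Control replicate 1 had 3.59% and 4.78% with 1 limit of −log10 q. The block separated the profile far more than any interval did in the other genes. Of the variance between 25-kb bins of the mean profile, it took up 69.0% in FHIT, against 20.0% for the best interval in WWOX, 16.9% in IMMP2L, 7.57% in LRP1B and 6.27% in MACROD2.

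**Figure D3:**
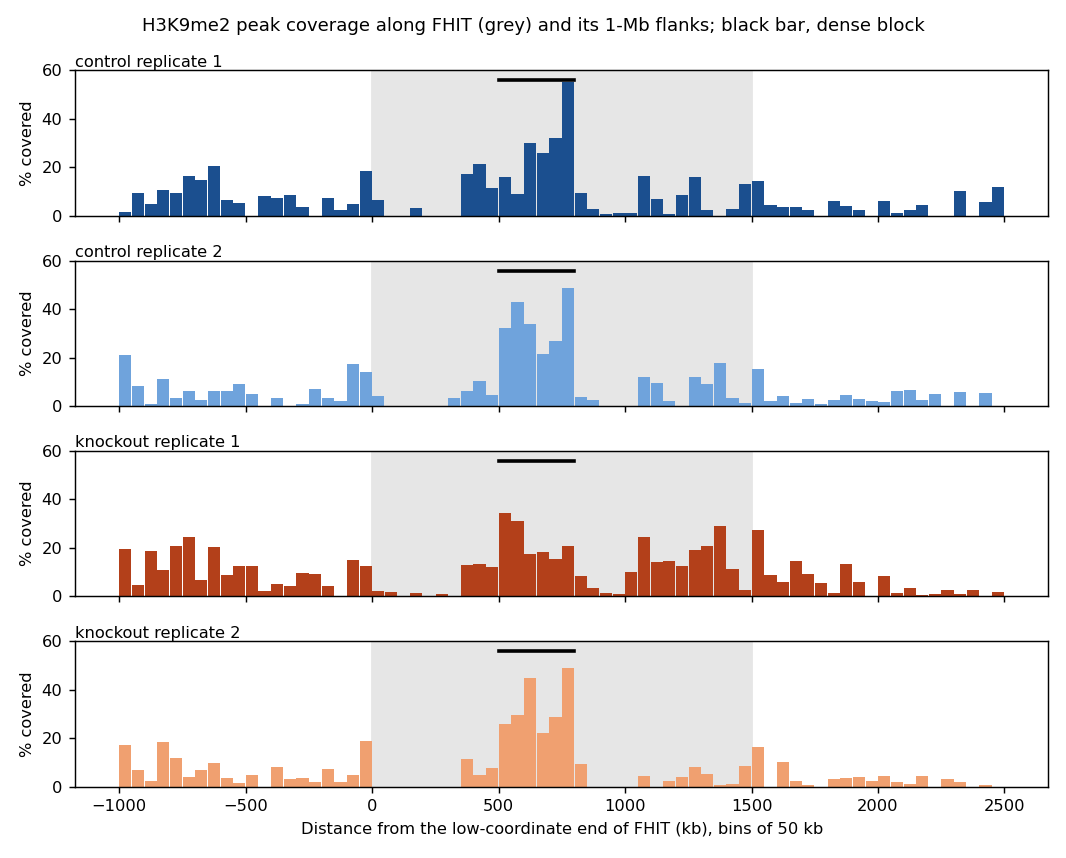
Percent of bases under H3K9me2 peaks in 50-kb bins along FHIT (grey) and its 1-Mb flanks, 1 panel per library, by distance in kb from the gene's low-coordinate end, with the dense block as a black bar. The block is denser than the rest of the body in all 4 libraries (23.0% to 34.3% covered). It stands out least in knockout replicate 1, which also has raised bins on the block's high-coordinate side (12.3%).

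The low-coordinate edge of the FHIT block was found again in most other ways of seeking it, and the high-coordinate edge moved more. The 2 controls alone gave the same edges, the 2 knockouts alone gave chr3:60235036-60560035, and bins of 10 kb gave chr3:60235036-60545035. Taken alone, control replicate 2 gave the same edges, knockout replicate 2 gave those of the 2 knockouts, and control replicate 1 gave a shorter interval of 200 kb. Knockout replicate 1 alone gave an interval of 1075 kb (29.5% of the variance between its bins), and its coverage continued past the high-coordinate side of the block. That side of the gene had 12.3% under peaks in knockout replicate 1, against 6.18% and 5.54% with gHPRT and 3.43% in knockout replicate 2. Peaks inside and outside the block had like fold enrichment, with medians of 1.79 and 1.76 in control replicate 1, 1.69 and 1.72 in control replicate 2, 1.92 and 1.96 in knockout replicate 1 and 1.75 and 1.77 in knockout replicate 2. In the full lists they were wider inside, at 2862 against 2079 bp and 1892 against 1691 bp with gHPRT. With gCUX1 the widths were 1661 against 1200 bp and 2058 against 1057 bp. The block was chosen for its coverage, to which wide peaks add, so these widths too are only a description. With 1 limit of −log10 p peaks were narrower inside in control replicate 2 (1632 against 2416 bp). With 1 limit of −log10 q they were narrower inside in both controls (1349 against 1929.5 bp and 1662.5 against 2536 bp). The block held 26 and 39 of the 56 and 69 FHIT peaks with gHPRT and 38 and 43 of the 112 and 71 with gCUX1. Control and knockout coverage of the block overlapped, with a mean of 31.2% ± 4.43 (SD, n = 2) with gHPRT and 28.2% ± 7.33 (SD, n = 2) with gCUX1 (exact two-sided permutation p 0.667). Both knockouts lay above both controls there, with exact permutation p of 0.333, once the lists were limited alike. The means with gHPRT and gCUX1 were then 11.3% and 21.4% with 1 limit of −log10 p, 7.20% and 22.3% with 1 limit of −log10 q, and 14.1% and 21.9% with equal covered length. The median difference over the bodies and 1-Mb windows was 3.37, 4.06 and 0.355 points in these settings in turn. How many windows had both knockouts above in these settings was not counted. With 1 limit of −log10 p the whole lists covered 9.27% and 10.1% of chromosomes 1 to 22 and X with gHPRT. With gCUX1 they covered 13.9% and 11.4%.

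On the low-coordinate side of the block FHIT was sparse, with 5.98% and 2.80% under peaks with gHPRT and 4.52% and 2.39% with gCUX1. A stretch of 84.7 kb there, chr3:59928185-60012901, was free of listed peaks in all 4 libraries. The longest such stretch was 45.7 kb in MACROD2, 13.5 kb in WWOX, 10.3 kb in LRP1B and 7.08 kb in IMMP2L. The 100-kb window of FHIT with the highest mean, chr3:60300001-60400000, lay in the block, with 23.0% and 37.5% with gHPRT and 25.2% and 38.0% with gCUX1. The window with the lowest mean among those tested, chr3:60000001-60100000, had 4.13% and 1.99% with gHPRT and 2.73% and 0% with gCUX1. The window with the smallest p, chr3:61100001-61200000, was raised only in knockout replicate 1, with 1.36% and 5.38% with gHPRT and 19.1% and 1.06% with gCUX1 (limma adjusted p 0.341).

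Among 100-kb windows, the smallest p in any body was in IMMP2L, and the smallest in any flank was beside it. The window chr7:110100001-110200000, in the low-coordinate flank on the side of DNAJB9, had 45.6% and 49.7% under peaks with gHPRT and 9.43% and 10.0% with gCUX1. It fell by 37.9 points (SE 7.89, limma adjusted p 0.0143) and was the only one of 90 flank windows to pass, against 0.0980% of all 27547 windows of 100 kb that fell. In the body the smallest p was at chr7:110500001-110600000, with 47.1% and 39.0% with gHPRT and 17.8% and 16.9% with gCUX1 (−25.7 points, SE 8.02, unadjusted p 0.00135, adjusted p 0.109). The lowest window, chr7:110700001-110800000, had 33.1% and 38.4% with gHPRT and 9.66% and 27.6% with gCUX1. The highest, chr7:111100001-111200000 at the start end of the gene, had 48.8% and 31.1% with gHPRT and 27.7% and 40.6% with gCUX1, and its groups overlapped. IMMP2L and its flanks lie on the long arm of chromosome 7, and the whole chromosome had 32.0% and 32.0% with gHPRT and 17.5% and 25.2% with gCUX1. The call in the flank was not made with 1 limit of −log10 p or q, equal covered length, quantile normalization or windows of 50 kb.

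Over the 5 bodies 70 windows of 100 kb lay whole inside, 66 of them with a mean coverage of at least 1% and so tested, of which 11 of 14 were in FHIT and 19 of 20 in MACROD2. By limma's adjusted p 0 of the 66 were called. At an unadjusted p under 0.05 there were 10, all lower with gCUX1, where all windows had 15% in either direction. Of those 10, 5 were in IMMP2L, 4 in MACROD2 and 1 in WWOX. Both knockouts lay below both controls in 28 of the 66, against 43.3% of all windows, and above in 1, against 4.98%. Without knockout replicate 2 the number called in the bodies was 6, and in the flanks 8, against 8.39% of all windows. In WWOX the window with the smallest p was chr16:78300001-78400000, with 33.0% and 43.0% with gHPRT and 14.3% and 22.4% with gCUX1 (limma adjusted p 0.223). In LRP1B it was chr2:142100001-142200000, with 24.4% and 28.1% with gHPRT and 9.31% and 14.9% with gCUX1 (limma adjusted p 0.358).

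Levels in WWOX and LRP1B varied less along the gene than in FHIT. The highest window of WWOX, chr16:78400001-78500000, had 40.9% and 36.5% with gHPRT and 29.0% and 47.7% with gCUX1, and its lowest, chr16:78600001-78700000, had 31.2% and 21.0% with gHPRT and 30.5% and 23.6% with gCUX1. In LRP1B the highest, chr2:142700001-142800000, had 35.2% and 26.6% with gHPRT and 20.5% and 21.5% with gCUX1. Its lowest, chr2:141100001-141200000, had 14.3% and 16.1% with gHPRT and 10.0% and 23.5% with gCUX1. The coefficient of variation over 10 equal parts of a body ran from 13.3% to 27.2% across the libraries of WWOX, LRP1B and IMMP2L, from 31.4% to 43.5% in MACROD2 and from 68.7% to 123% in FHIT.

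Peaks in the sparse MACROD2 were also the narrowest, and the genes differed in how their peaks were spaced. The median peak of FHIT was 2426 and 1821 bp wide with gHPRT and 1245 and 1369 bp with gCUX1. In LRP1B it was 2439 and 2178 bp with gHPRT and 1204 and 1874 bp with gCUX1. In WWOX it was 2417 and 2408 bp with gHPRT and 1687 and 2530.5 bp with gCUX1, and in IMMP2L 2251.5 and 2333 bp against 1917 and 2266.5 bp. Peaks were thus narrower in both knockouts than in both controls in 3 of 5 genes, FHIT, LRP1B and MACROD2, against 76% of the 2603 windows of 1 Mb with at least 20 peaks in each library. The knockout to control ratio of width was 0.615 in FHIT, 0.667 in LRP1B, 0.545 in MACROD2, 0.874 in WWOX and 0.913 in IMMP2L, and 0.714 in the median window. The exact two-sided permutation p was 0.333 for the 3 genes, the smallest it can be, 0.667 for IMMP2L and 1 for WWOX. With 1 limit of −log10 p the groups overlapped in FHIT, where the difference went from −816.5 to −202.75 bp, and in LRP1B (−769.5 to −455.5 bp), and stayed apart in MACROD2 (−593 to −305.5 bp). Each list had its own smallest peak, of 362 and 369 bp with gHPRT and 263 and 339 bp with gCUX1. Divided by it, widths stayed lower in both knockouts in FHIT, LRP1B and MACROD2 and were higher in both in IMMP2L. For the divided widths and the limited lists, the share of windows that did the same was not counted.

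The median gap between neighbouring peaks was shorter in both knockouts than in both controls in FHIT alone, and in 11.9% of windows. It was 12270 and 6840 bp in the FHIT controls and 5253 and 5378.5 bp with gCUX1 (exact two-sided permutation p 0.333), with 56 and 69 peaks against 112 and 71. Gaps were longer in both knockouts in 2 of 5 genes, against 47.6% of windows. They were 3517 and 3573 bp in the WWOX controls and 6098 and 3822 bp with gCUX1. In IMMP2L they were 3229 and 3749.5 bp against 5686.5 and 3857 bp. In LRP1B, at 4643 and 6027 bp against 5873 and 6355 bp, the groups overlapped. MACROD2 had the widest gaps, 26159 and 17436.5 bp with gHPRT and 20238.5 and 24092.5 bp with gCUX1, which also overlapped.

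**Figure D4:**
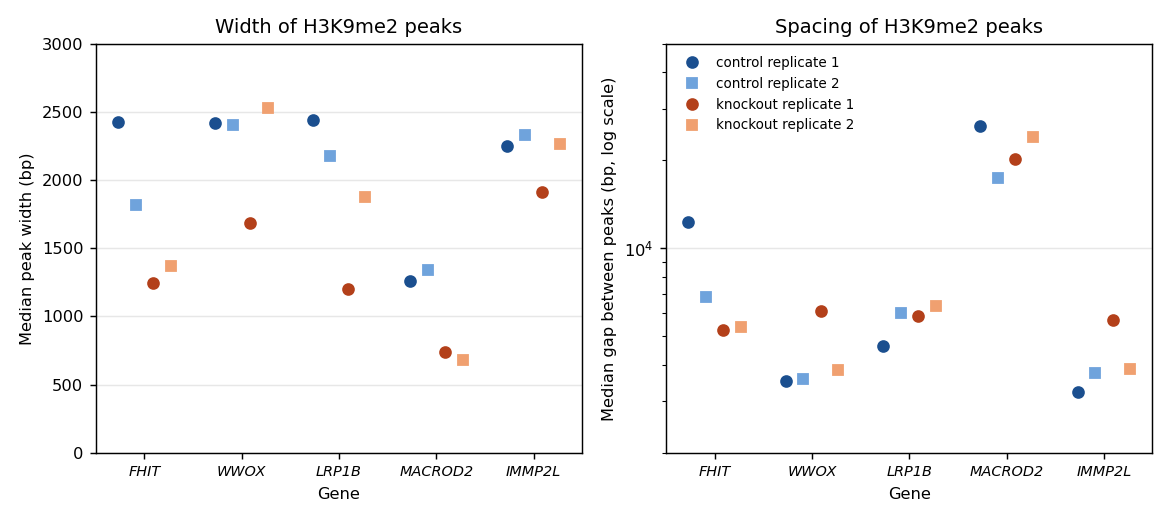
Median width of the peaks in each gene body (left, bp) and median gap between neighbouring peaks (right, bp, log scale), 1 point per library. MACROD2 has the narrowest peaks and the widest gaps, and FHIT is the gene whose gaps are shorter in both knockouts (5253 and 5378.5 bp) than in both controls.

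The median fold enrichment of the peaks differed little between genes and followed the library. It lay between 1.66 and 1.81 with gHPRT, between 1.90 and 1.96 in knockout replicate 1 and between 1.73 and 1.77 in knockout replicate 2 in all 5 bodies. Both knockouts were above both controls in 3 of 5 genes, LRP1B, MACROD2 and IMMP2L, against 51.8% of windows.

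Peak names carry serial numbers that ran past the 250000 listed peaks, to between 381380 and 448404. They were taken here to count every peak called, although no source says so. Counted by them, MACROD2 had 132 and 96.2 peaks per Mb with gHPRT and 71.9 and 61.7 with gCUX1. Both knockouts lay below both controls there, in 1 of 5 genes, against 16.3% of the bodies and 1-Mb windows. IMMP2L had 173 and 177 peaks per Mb with gHPRT and 217 and 183 with gCUX1. In it both knockouts lay above both controls, against 29.9% of rows, although the listed peaks covered less of the gene with gCUX1. By limma neither difference passed (adjusted p 0.649 for MACROD2 and 0.693 for IMMP2L). Of 2802 rows 38 fell and 1 rose in that fit, and 182 had an unadjusted p under 0.05.

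Few bases of these genes lay under a peak in every library. The share covered in all 4 was 2.86% in IMMP2L, 1.63% in WWOX, 0.486% in LRP1B, 0.357% in FHIT and 0% in MACROD2, against 1.11% of chromosomes 1 to 22 and X. The share if the libraries' peaks lay independently, with coverage even along the region, depends on coverage. The observed share was 30.6 times that in FHIT, 3.22 in IMMP2L, 2.54 in LRP1B and 1.98 in WWOX, against 8.11 over these chromosomes. In MACROD2 the independent share was only 0.000365%. Covered in none of the 4 were 83.4% of MACROD2 and 70.8% of FHIT, but 41.1% of LRP1B, 30.5% of IMMP2L and 25.6% of WWOX, against 50.8% overall. The share covered in both controls and in neither knockout was 8.25% in IMMP2L and 6.51% in WWOX, and the reverse was 1.86% and 2.48%. Over chromosomes 1 to 22 and X these shares were 3.80% and 1.45%, and in LRP1B 3.79% and 1.37%. In MACROD2 these shares were 0.376% and 0.178%, and in FHIT 1.14% and 0.871%.

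**Figure D5:**
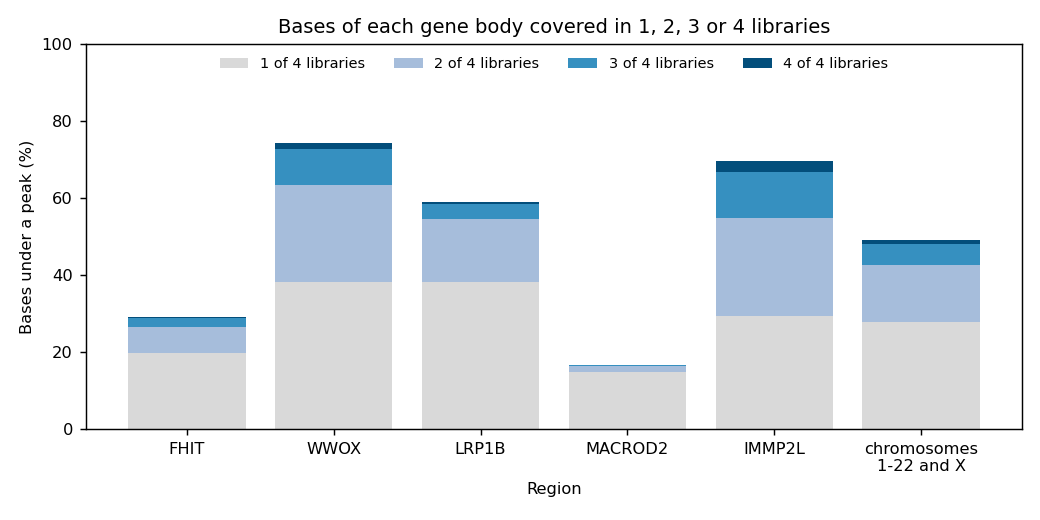
Percent of the bases of each gene body, and of chromosomes 1 to 22 and X, under a peak in exactly 1, 2, 3 or 4 of the 4 libraries. Bases covered in only 1 library make up most of the covered part of FHIT, WWOX, LRP1B and MACROD2 and of the chromosomes, and the share covered in all 4 is 2.86% at most (IMMP2L).

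The longest stretch covered in all 4 libraries was 3056 bp in WWOX (chr16:79213548-79216603), near the end of the gene. In the 4 libraries it lay under peaks 11349, 7667, 6057 and 4457 bp wide, in the order control replicates 1 and 2 and knockout replicates 1 and 2. In IMMP2L it was 2669 bp (chr7:111145915-111148583), 1 of 31 such stretches. In LRP1B it was 2196 bp (chr2:141775870-141778065), 1 of 15. In FHIT it was 1693 bp (chr3:60540218-60541910), 1 of 6, and it lay just past the high-coordinate edge of the dense block. MACROD2 had no stretch covered in all 4. The folds of the peaks at these 4 stretches ran from 1.58 to 2.07.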

How the data were processed

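H3K9me2 was mapped by CUT&RUN in 2 control and 2 CUX1 knockout libraries of K562 cells, grouped by their titles. The submitters' processing notes name MACS2 2.1.0, BWA 0.7.17, deepTools 3.5.1 and SAMtools 1.16.1, with hg19 as the build. Settings, and whether a background library was used, are not given in the sources used here. For each library the authors deposited 250000 broad peaks. Every deposited peak has a score, a fold (the ratio to the caller's local background), a −log10 p and a −log10 q. The deposited score was not used beyond checking the files, and fold, p and q served to describe, rank or limit peaks.

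Computed here were the percent of bases under peaks, median widths and gaps, in bodies and 1-Mb flanks (Python 3.11.15, numpy 2.4.6, pandas 2.3.3, scipy 1.17.1). Percent covered was tested with limma 3.58.1 in R 4.3.3 (trended eBayes, Benjamini-Hochberg adjustment, threshold 0.05) over the bodies and 1-Mb windows, and over 100-kb windows, in rows with a mean of at least 1%. Single values were compared by the two-sided exact permutation test over libraries. Neighbouring windows are not independent. The fits were also run on simulated data with independent rows, no shift of a whole library and added changes larger than those of the bodies. These libraries differ from that, so the run does not vouch for the calls here. Named 100-kb windows were those past the threshold in a body or flank, and in each body those with the highest mean, the lowest mean and the smallest p. In each body the longest stretch covered in all 4 libraries was also named. The members, lists and tests were chosen with earlier results of these data known. Other fragile-site genes were not analysed here, since no hg19 annotation was used. Promoter sequences came from RefSeq (GRCh38.p14), matched by symbol for 4 of 5 genes. 1 further body was kept as a row of the fit and is not reported here. The replicate numbers are not said to mark a shared batch, and the correlation of same-numbered deviations was 0.0561, so they were not taken to pair the libraries.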

Additional observations from a re-analysis of the deposited data

How the results depend on the processing

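No depth is known, most listed peaks are weak by the caller's own q, and each list ends at its own p. The direction of most differences between groups turned with how the lists were limited. The cause was not tested. Values are knockout minus control, in percentage points for coverage and bp for width and gaps. With 1 limit of −log10 p, coverage turned to 4.67 in WWOX, 7.23 in LRP1B, 0.783 in MACROD2 and 0.145 in IMMP2L. Body minus flanks turned to 1.19 in FHIT, 1.02 in WWOX and 1.95 in LRP1B, the WWOX width to 127.25, and gaps to −1341.75 in WWOX, −13757 in LRP1B, −29994.5 in MACROD2 and −1917 in IMMP2L. With 1 limit of −log10 q, coverage turned to 8.08 in WWOX, 5.615 in LRP1B and 6.24 in IMMP2L, and MACROD2 could not be fitted, its mean being under 1%. Body minus flanks turned to 2.53 in FHIT and 2.73 in WWOX, the WWOX width to 140.25, and gaps to −8891.75 in WWOX, −36044 in LRP1B, −59599 in MACROD2 and −4151.75 in IMMP2L. With lists cut to equal covered length, coverage turned to 0.619 in WWOX and 2.70 in LRP1B, body minus flanks to 0.450 in FHIT, 0.512 in WWOX and −0.482 in IMMP2L, and gaps to −6266.25 in LRP1B, −10527 in MACROD2 and −341 in IMMP2L. The FHIT coverage difference, 0.0372 in the full lists, was 4.94, 4.41 and 4.04 with these 3 limits and 3.05 with quantile normalization, and the FHIT width difference was −20.25 with 1 limit of −log10 q, where the groups overlapped. Quantile normalization turned coverage to 1.504 in WWOX and 1.22 in LRP1B. On the log2 scale, coverage relative to the genome was 0.032 in WWOX and 0.075 in LRP1B, and peaks per Mb by serial number gave −0.11 in FHIT, 0.090 in WWOX, 0.031 in LRP1B and 0.19 in IMMP2L. With flanks of 500 kb, body minus flanks was −0.907 in IMMP2L, and with flanks of 2 Mb 0.185 in WWOX, 1.42 in LRP1B and −0.0437 in IMMP2L. Width divided by the smallest width differed by 0.338 in WWOX and 0.716 in IMMP2L.

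Leaving out 1 library at a time, coverage differences ran from −1.36 to 1.43 in FHIT, −13.9 to −3.09 in WWOX, −7.33 to −3.83 in LRP1B, −2.97 to −2.21 in MACROD2 and −18.4 to −9.99 in IMMP2L. Body minus flanks ran from −1.06 to 0.553 in LRP1B and −0.933 to 2.15 in IMMP2L, the WWOX width from −725.5 to 118, and the MACROD2 gap from −3993.5 to 4729. Without a change of sign, the gap ran from −6954.25 to −1524.25 in FHIT, 277 to 2553 in WWOX, 87 to 1471 in LRP1B and 367.75 to 2197.25 in IMMP2L. Over all alternatives the limma adjusted p ran from 5.45e-06 to 0.927 in WWOX, 1.30e-09 to 0.972 in IMMP2L, 0.0882 to 0.901 in LRP1B, 0.127 to 0.983 in MACROD2 and 0.220 to 0.997 in FHIT.

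Of all 100-kb windows 27 were called. The count was 0 with 1 limit of −log10 p or of −log10 q, equal covered length, quantile normalization or windows of 50 kb, each of which also called 0 flank windows. It ran from 9 to 2312 without 1 library, with 0 to 6 in the bodies and 1 to 8 in the flanks. With the replicate number as a block it was 173, and the block changed no call in the bodies or flanks (limma adjusted p 0.127 for MACROD2 to 0.986 for FHIT). Of the bodies and 1-Mb windows, 117 fell and 2 rose, against 0 that fell with 1 limit of −log10 p (17 rose) or q (0 rose), and those that fell were 4 with equal covered length, 37 with quantile normalization, 58 relative to the genome, 38 by serial number and 224 with the block. The ratio of the FHIT block to the rest of the gene, with a mean of 6.52 over the libraries, ran from 5.66 (equal covered length) to 9.58 (1 limit of −log10 q) in alternatives chosen after the data were seen, and was 2.81 by serial number.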

Other observations

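The pairwise overlap of covered bases (the Jaccard index) did not separate the groups in FHIT, where it was 0.145 between the controls, 0.126 between the knockouts and 0.0942 to 0.188 between a control and a knockout, against 0.0508 to 0.0589 if the peaks of a pair lay independently at their coverage. In IMMP2L it was 0.306 between the controls, 0.236 between the knockouts and 0.189 to 0.277 between the groups, against 0.136 to 0.239 if independent. In MACROD2 it was 0.0116 to 0.0424 over the pairs, against 0.0164 to 0.0302 if independent.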
